A study of Gallus gallus with 23 samples.

Results

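This comparison asks what triiodothyronine (T3), the active thyroid hormone, changed in the chicken liver when it was given together with corticosterone (CS), the main glucocorticoid of birds. Livers of 5 birds that received both hormones (CS+T3) were set against livers of 6 birds that received CS without T3, so 11 of the 23 arrays of the series are compared and all genes on the array are examined. The CS+T3 birds received 600 micrograms of CS and 192 micrograms of T3 per kg per day, and the CS birds received 600 micrograms of CS per kg per day. All were Ross x Cobb broiler cockerels carrying a minipump placed under the skin at 29 days of age that released 1.0 microlitre per hour for 6 days until the liver was taken. Birds given T3 alone at the same dose (T3, 6 arrays) and birds given the vehicle of DMSO and propylene glycol (VC, 6 arrays) carried the same pump and serve here for the levels without CS. On every array the RNA of a single liver was hybridised together with pooled liver RNA of 6 control birds, and a value is the log2 ratio to that pool, so that 1 on this scale is a 2-fold difference.

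Glucocorticoids act through a nuclear receptor that raises the enzymes of amino acid breakdown and glucose formation in liver and lowers many other genes. T3 acts through the nuclear receptors THRA and THRB. In the liver it is known for raising the genes of fatty acid synthesis, of which THRSP (thyroid hormone responsive protein) is the classical one, and for raising mitochondrial respiration. Deiodinases activate and inactivate thyroid hormone, and corticosterone itself changes these enzymes in chickens, so that both hormones meet in this tissue.

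The table held values for 8925 to 13721 of 19200 spots per array, and on 6 of the 23 arrays values sat against the wrong spots. These were CS+T3 replicates 1 and 2, CS replicate 3, T3 replicates 1 and 3 and VC replicate 4. Their values were moved back to their spots or left missing. Which dye channel is the numerator is not stated. Positive values were taken to mean more RNA in the bird than in the pool, which is the likely direction because the sample titles name the bird first and the pool second, and because THRSP, known to be raised by T3 in chicken liver, then is higher with T3. If the pool were the numerator, every direction below would turn round. The SD of the values over features was 0.51 on CS+T3 replicate 2 and 0.25 to 0.29 on the other 4 CS+T3 arrays. On the CS arrays it was 0.32 to 0.48, so the spread differed between the groups compared. Birds were kept 3 per pen in 2 rooms, the labels tie no array to a pen or room, and any part of these in the results was not tested. In whole liver, fewer cells of a type and less RNA per cell cannot be told apart.

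Most features that passed the test were higher when T3 was added to CS. Of 9246 features, of which 4835 were named genes and the other 4411 single spots with no name, 208 were higher in CS+T3 than in CS (2.25%) and 36 were lower (0.389%) at an adjusted p under 0.05 (limma, Benjamini-Hochberg over all features), 244 in all (2.64%). The features that rose had a median log2 fold change of 0.85, or 1.8-fold, and those that fell of -0.60. The median over all features was -0.04, and 43.0% of them had a positive fold change. Among birds with a value, in 138 of the 208 every CS+T3 bird was above every CS bird. In 19 of the 36 every CS+T3 bird was below every CS bird. Over all features such a separation was found in 5.26%, 3.13% upward and 2.13% downward. The 208 and the 36 were called on these same birds, which favours a separation, so the higher shares among them are no separate result. Of the 208 features that rose 98 have a gene name, and of the 36 that fell 15 do. The largest rise was that of a spot with no gene name, at 3.03.

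**Figure D1:**
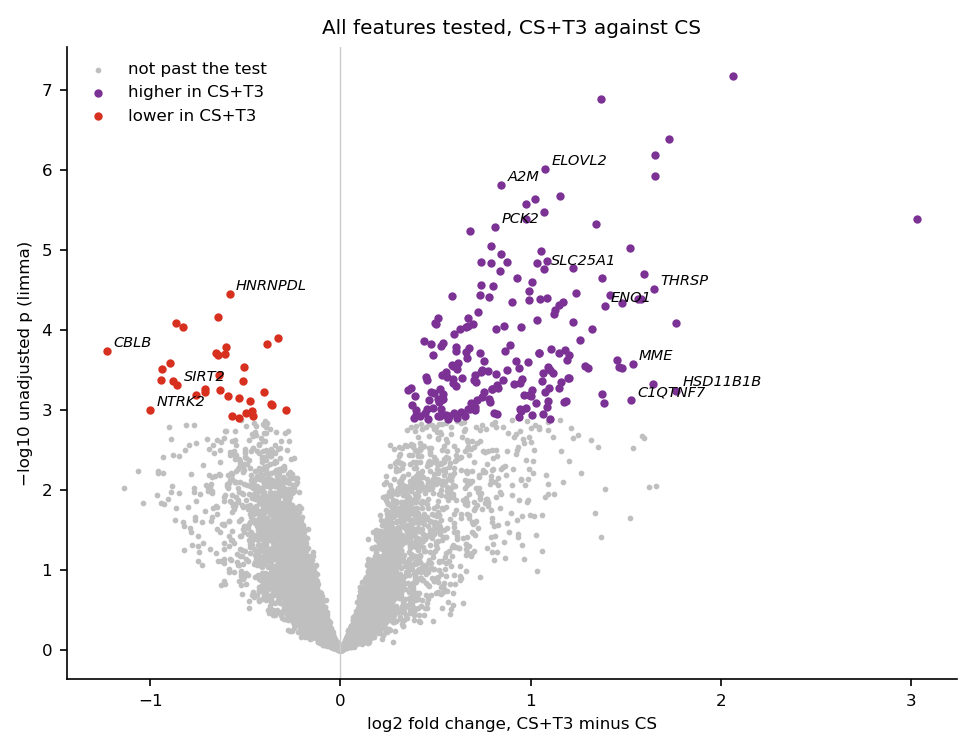
Each point is 1 of 9246 features, with the log2 fold change of CS+T3 minus CS on the x axis and the negative log10 of the unadjusted limma p on the y axis. The 208 features past the test on the right outnumber the 36 on the left.

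The count depended on which arrays were fitted and on where the misplaced values were placed. When the 4 arrays with most values out of place were dropped, 66 features passed (61 higher, 5 lower), and without all 6 it was 26 (25 higher, 1 lower), over 3 CS+T3 and 5 CS birds. With the values left where they were deposited 5 passed, all higher. Quantile normalization, which evens the spread of the arrays, left 91 (86 higher, 5 lower). Of 81 genes past the test that were followed by name through the alternatives, 80 could be fitted without the 6 arrays, all 80 kept their sign, and 12 still passed. The 81 are not all named genes past the test, and 29 of them were chosen after their values were seen. AOC3, EEF1A1, KIF1BP, RARRES2 and SLC51A, among the 12, were such choices, so 12 of 81 is no rate for the called genes at large. The remaining 3 CS+T3 and 5 CS arrays also enter the main fit, so the kept signs were favoured in advance. Over the features that rose, the median log2 ratio per array was 0.10 to 0.41 in CS+T3, against -0.18 on CS replicate 5 and -0.94 to -0.47 on the other CS arrays. These features were called on the same arrays, so the split between the groups was built in. Only the differences among arrays of 1 group can be read from these medians. Leaving out CS replicate 5 raised the count to 670, and leaving out CS replicate 4 lowered it to 93, and both of these arrays were in place. Leaving out 1 misplaced array gave 102 (CS+T3 replicate 1), 268 (CS+T3 replicate 2) and 176 (CS replicate 3). Fits without the misplaced arrays also have fewer birds, and the part of each in the count was not tested. Among the genes described below, some passed in less than 50% of the 24 or 25 alternatives in which they could be fitted. FARSB and RNF126 passed in 12, ACO1, CEBPB, GDF3 and HSD11B1B in 11, NTRK2 and PSMA3 in 10, and APOH, C1QTNF7, PSME3 and SLC4A1 in 9. CYP2AC1 and RPL35A passed in 8, EEF2, RPS12 and SKA2P1 in 7, SNN in 5 and GPI in 4.

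Genes of fatty acid synthesis were split. THRSP, which in mammals binds to the lipogenic machinery of the liver, stood at 0.93, 1.88, 1.30, 1.78 and 1.16 in the 5 CS+T3 birds, against -0.23, 0.09, -1.12, 0.73 and -0.69 in the 5 CS birds with a value. Every CS+T3 bird was above every CS bird. Since THRSP helped to choose the direction of the ratios, its sign is no independent result. The log2 fold change was 1.65 (SE 0.32, 3.14-fold, adjusted p = 0.0082), and both of its spots showed it, at 1.46 and 1.84. Without the arrays with misplaced values it was 1.66 with an adjusted p of 0.0524, and over all 24 settings in which it could be fitted it ranged over 1.20 to 1.89 with adjusted p up to 0.11.

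SLC25A1, the mitochondrial citrate carrier that hands carbon to fatty acid synthesis in the cytosol, rose by 1.07 (SE 0.20, adjusted p = 0.00595). Its values were 0.96, 0.00, 0.59, 0.67 and 0.59 in the CS+T3 birds, against -1.23, -0.51 and 0.14 as the lowest, median and highest of the 6 CS birds. CS+T3 replicate 2 lay below the highest CS bird, replicate 5, and the other 4 CS+T3 birds lay above all CS birds. ELOVL2, which lengthens polyunsaturated fatty acids, rose by 1.08 (SE 0.15, adjusted p = 0.0018), with 0.70, 0.28, 0.13 and 0.47 in 4 CS+T3 birds, against -0.49, -0.66, -0.86, -0.51 and -0.88 in 5 CS birds, and the groups did not overlap.

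The enzymes that build the fatty acid chain, shown after their values were seen, did not pass. FASN, the fatty acid synthase, differed by -0.05 (SE 0.34), ACACA, the acetyl-CoA carboxylase, by 0.18 (SE 0.15), ACLY, the citrate lyase, by 0.03 (SE 0.15) and SCD, the stearoyl-CoA desaturase, by -0.05 (SE 0.12). SREBF1, the transcription factor of the pathway, differed by -0.28 (SE 0.16) and MID1IP1, the paralogue of THRSP, by -0.10 (SE 0.16). The SE of FASN leaves room for a change of either sign. Of 20 measured genes of fatty acid synthesis 3 rose, THRSP among them, and 17 did not pass. Their median was 0.11 against -0.04 over all features, of which 2.25% rose. A positive fold change was found in 11 of the 20, against 43.0% of all features. No member passed among 10 genes of triglyceride synthesis and lipid droplets (median -0.05), 15 of cholesterol synthesis and uptake (median -0.05) or 20 of fatty acid oxidation (median 0.11). In the last list EHHADH, an enzyme of peroxisomal oxidation, stood at 0.56 (SE 0.20, adjusted p = 0.124), and its 2 spots differed, at 0.10 and 1.18.

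**Figure D2:**
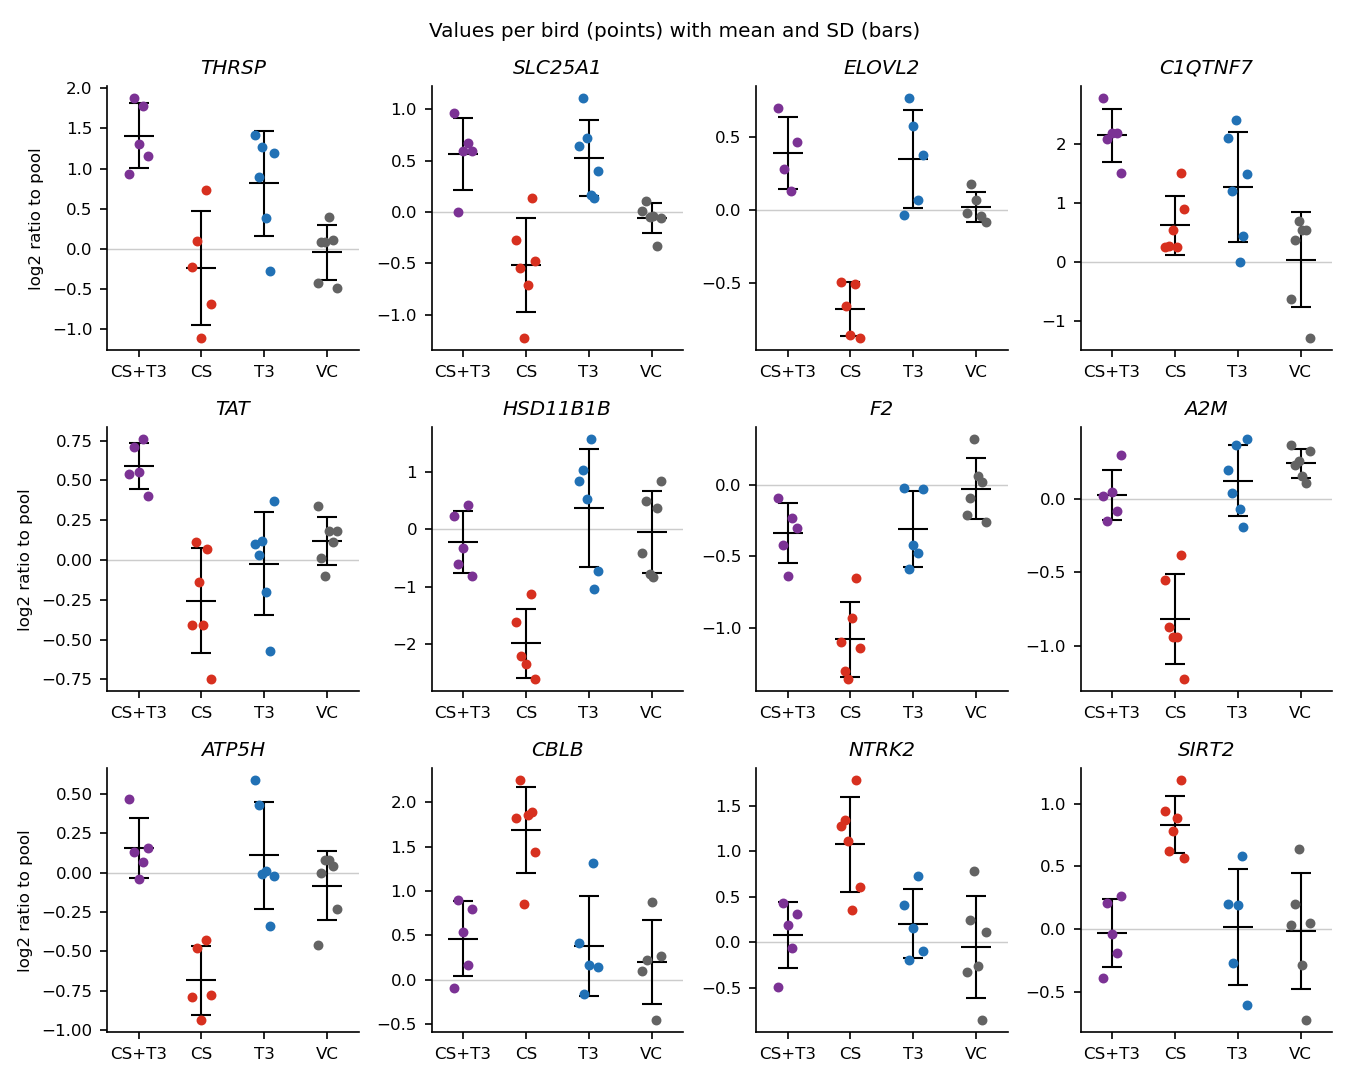
Points are single birds, with the log2 ratio to the pool on the y axis, and the bars give the mean and SD of CS+T3, CS, T3 and VC birds for 12 genes. THRSP, ELOVL2, TAT, HSD11B1B, F2, A2M and ATP5H have every CS+T3 bird above every CS bird, and SIRT2 has every CS+T3 bird below them.

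Of 7 measured classical T3 targets and genes of thermogenesis, THRSP and ATP1B1, the beta subunit of the sodium pump, rose and none fell (median 0.36). A positive fold change was found in 4 of the 7. The sign of THRSP is no independent result, since it helped to choose the direction of the ratios. Among all features 43.0% had a positive fold change, 2.25% rose and the median was -0.04. The median of the list on each array was 0.10 to 0.37 in CS+T3 birds, against -0.46 to 0.03 in CS birds, so the groups did not overlap, and it was -0.05 to 0.93 in T3 and -0.16 to 0.08 in VC. Without CS replicate 4 a single member passed, and without the arrays with misplaced values none did (median 0.36). ATP1B1 differed by 0.47 (SE 0.11, adjusted p = 0.0174), and its 9 spots all pointed upward, at 0.15 to 0.88. SLC25A6, a mitochondrial ADP/ATP carrier, had a difference of 0.98 (SE 0.31, adjusted p = 0.0823). UCP3, a mitochondrial uncoupling protein, stood at 0.00 (SE 0.14) and PPARGC1A, a coactivator of mitochondrial genes, at -0.34 (SE 0.17).

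None of 11 genes of thyroid hormone transport, activation and receptors passed (median -0.06). DIO1, the type 1 deiodinase, averaged -0.01 ± 0.05 in CS+T3 and 0.23 ± 0.10 in CS (SD, n = 5 and 6). All 5 CS+T3 birds lay below all 6 CS birds, but the difference of -0.24 (SE 0.08) had an adjusted p of 0.0799, and the 22 spots of the gene ranged over -0.61 to 0.14. The receptor genes THRA (-0.08, SE 0.14) and THRB (-0.14, SE 0.13) had overlapping values, and THRB was at 0.02 with a single lag for each misplaced array. TTR, transthyretin, which carries thyroid hormone in plasma, averaged -0.83 in CS+T3 and -1.43 in CS, a difference of 0.60 (SE 0.26, adjusted p = 0.183) to which its 3 spots contributed unequally, at -0.03 to 1.04, and which was -0.02 under quantile normalization.

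Of 9 measured genes of the glucocorticoid response 3 rose when T3 was added and none fell (median 0.19), while 2.25% of all features rose. A single member passed when any of CS+T3 replicates 1, 3 and 4 or CS replicates 4 and 6 was left out, and none of 8 passed without the arrays with misplaced values (median 0.19). TAT, the tyrosine aminotransferase, is a classical glucocorticoid-raised enzyme of mammalian liver. It had values of 0.54, 0.71, 0.55, 0.76 and 0.40 in the CS+T3 birds, against a lowest of -0.75, a median of -0.27 and a highest of 0.11 in the 6 CS birds. The groups did not overlap, and the log2 fold change was 0.85 (SE 0.15, 1.8-fold, adjusted p = 0.00521). TAT averaged 0.59 ± 0.15 in CS+T3 and 0.12 ± 0.15 in VC (SD, n = 5 and 6), a difference of 0.47 (SE 0.15, adjusted p = 0.661 by limma), and CS minus VC was -0.37.

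HSD11B1B, named as a chicken relative of the enzyme that regenerates active glucocorticoid, had the largest rise among named genes. It stood at 0.24, -0.61, -0.32, 0.43 and -0.82 in the CS+T3 birds, against -1.62, -2.21, -2.35, -1.13 and -2.62 in 5 CS birds. The groups did not overlap, and the log2 fold change was 1.77 (SE 0.44, 3.4-fold, adjusted p = 0.0314) on 1 spot. T3 birds averaged 0.37 ± 1.04 and VC birds -0.05 ± 0.71 (SD, n = 6 each). HSD11B1B passed in 11 of 24 alternative settings, with adjusted p up to 0.354, and without the arrays with misplaced values it was at 1.75 with an adjusted p of 0.148.

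CEBPB, a transcription factor of the liver's glucocorticoid and acute-phase responses, rose by 0.67 (SE 0.18, adjusted p = 0.0428), without overlap. FKBP5, a co-chaperone that restrains the glucocorticoid receptor, differed by 0.19 (SE 0.12, adjusted p = 0.37), and GPT2, the mitochondrial alanine aminotransferase, by 0.28 (SE 0.18, adjusted p = 0.377). GPT2 was high with either treatment that held CS, at 1.30 ± 0.31 in CS+T3 and 1.02 ± 0.35 in CS (SD, n = 4 and 6), against -0.36 ± 0.21 in T3 and 0.20 ± 0.30 in VC. The CS+T3 minus CS difference of GPT2 was -0.18 with a single lag for each misplaced array.

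The widest shift among the lists was that of proteins which hepatocytes secrete into plasma. The lists were chosen with earlier results of these data known, and the median of CS minus VC over this list was -0.82. Its rank among the lists is therefore no separate result. Of 38 measured genes of coagulation, complement and plasma transport 33 had a positive fold change, with a median of 0.51 against -0.04 over all features, 6 rose and none fell. The share with a positive fold change was 43.0% over all features, and 2.25% of them rose. The median of the list on each array lay at -0.44 to -0.09 over the 5 CS+T3 birds and at -1.12 to -0.36 over the 6 CS birds, with 1 of the 6 CS birds inside the range of CS+T3. In T3 birds it was -0.29 to 0.09 and in VC birds -0.07 to 0.05. The list thus stood below the pool in every CS bird and in every CS+T3 bird.

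F2, prothrombin, had values of -0.09, -0.42, -0.64, -0.23 and -0.30 in the CS+T3 birds, against a lowest of -1.36, a median of -1.12 and a highest of -0.65 in the 6 CS birds. The lowest CS+T3 bird and the highest CS bird all but met. The log2 fold change was 0.74 (SE 0.14, adjusted p = 0.00766), while CS+T3 minus VC was -0.31 (SE 0.14) and CS minus VC -1.05. A2M, the broad protease inhibitor alpha-2-macroglobulin, stood at 0.02, -0.15, 0.05, -0.08 and 0.30 in CS+T3 birds, against -1.23, -0.90 and -0.38 as the lowest, median and highest of the CS birds. It did not overlap, its log2 fold change was 0.85 (SE 0.13, adjusted p = 0.00203), its 4 spots lay at 0.50 to 1.12, and it passed in 24 of 25 alternative settings. Without the arrays with misplaced values A2M was at 0.88 (adjusted p = 0.0362), and over all alternatives its adjusted p reached 0.0948 at most.

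AMBP, the precursor of a heme-binding microglobulin and of bikunin, rose by 1.33 (SE 0.28, adjusted p = 0.0124), with -0.16, -0.39, -0.23, -0.66 and 0.01 in CS+T3 birds, against -1.56, -2.03, -1.83, -0.64 and -1.98 in 5 CS birds. CS replicate 5 was the only CS bird inside the range of CS+T3. APOH, a phospholipid-binding plasma protein, rose by 0.98 (SE 0.26, adjusted p = 0.0426), coagulation factor F9 by 0.80 (SE 0.15, adjusted p = 0.00766) and SERPINF1, an inhibitor of blood vessel growth, by 0.52 (SE 0.11, adjusted p = 0.0113), although the 4 spots of SERPINF1 ran over -0.11 to 1.25. Under quantile normalization the rise was 0.75 for AMBP (adjusted p = 0.12), 0.41 for APOH (adjusted p = 0.31) and 0.38 for F2 (adjusted p = 0.187).

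The other 32 members did not pass, and those given here were chosen after their values were seen. ORM1, the acid glycoprotein orosomucoid, had the largest difference of all, 1.39 (SE 0.49, adjusted p = 0.114), with means of -0.95 in CS+T3 and -2.34 in CS. AHSG, fetuin A, differed by 1.06 (SE 0.42), the fibrinogen genes FGB by 1.02 (SE 0.41) and FGA by 0.73 (SE 0.27), complement C3 by 0.76 (SE 0.25), PLG, plasminogen, by 0.69 (SE 0.20) and ALB, albumin, by 0.51 (SE 0.34). The third fibrinogen gene, FGG, differed by -0.02 (SE 0.17), and SPIA4 stood near the same low level in both groups, at -1.46 in CS+T3 and -1.39 in CS. Under quantile normalization the median of the list was 0.23 with 2 members past the test, and without the arrays with misplaced values it was 0.58 with 1 member past the test. Over all alternatives the median lay between 0.23 and 0.61.

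**Figure D3:**
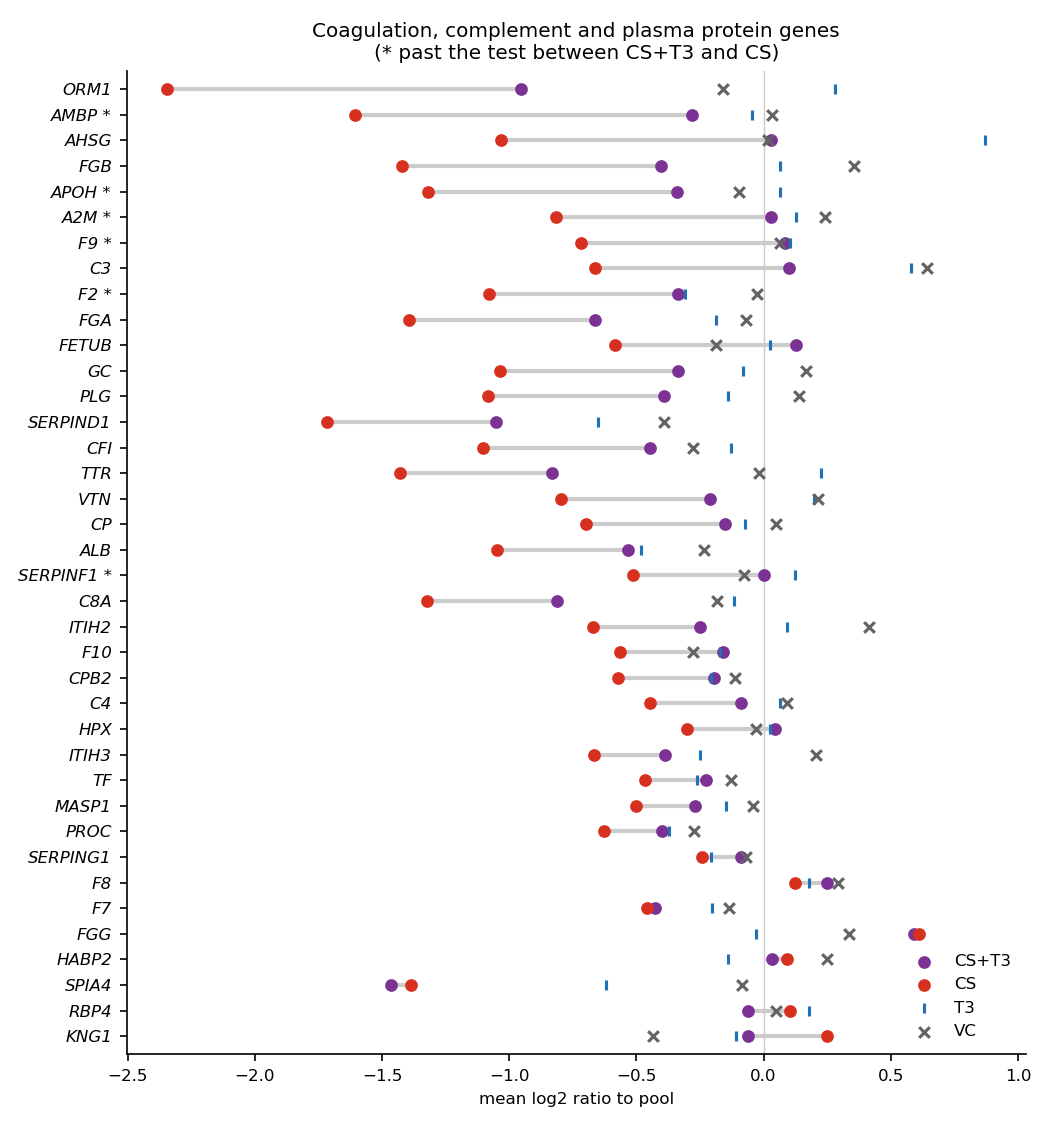
Each row is a plasma protein gene, with the mean log2 ratio to the pool in CS+T3, CS, T3 and VC birds on the x axis and a bar joining CS+T3 and CS. In most rows the CS+T3 mean lies between those of CS and VC, and the 6 genes past the test are starred.

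Of 30 measured genes of oxidative phosphorylation 22 had a positive fold change (median 0.21), 4 rose and none fell. Among all features 43.0% had a positive fold change and 2.25% rose (median -0.04). The median of the list on each array was 0.11 to 0.19 in the CS+T3 birds, against -0.17 to 0.02 in the CS birds, with no overlap, and it was -0.05 to 0.21 in T3 and -0.16 to 0.04 in VC. Without the arrays with misplaced values the median of the members was 0.06 and 1 of 29 passed, and 2 passed without CS+T3 replicate 5 or CS replicate 4.

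ATP5H, a stalk subunit of the ATP synthase, rose by 0.84 (SE 0.16, adjusted p = 0.00608). It stood at 0.47, 0.13, -0.04, 0.07 and 0.16 in the CS+T3 birds, against -0.79, -0.48, -0.94, -0.43 and -0.78 in 5 CS birds, so the groups were apart. ATP5B, the catalytic beta subunit, rose by 0.59 (SE 0.14, adjusted p = 0.0232), UQCRQ of complex III by 0.66 (SE 0.15, adjusted p = 0.0188) and NDUFB6 of complex I by 0.50 (SE 0.10, adjusted p = 0.0121). COX7C of complex IV went the other way at -0.81 (SE 0.22) with an adjusted p of 0.0533, and NDUFA9 of complex I had 0.92 (SE 0.28, adjusted p = 0.0764). Outside the list, and chosen after their values were seen, UQCRHL, a hinge subunit of complex III, rose by 1.17 (SE 0.23) and ATP5F1AZ, the alpha subunit of the ATP synthase, by 0.70 (SE 0.14).

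Of 13 genes of glycolysis and fructose metabolism 2 rose and none fell (median 0.07), while 2.25% of all features rose. The median of the list on each array was 0.04 to 0.15 in CS+T3 birds, against -0.25 to 0.01 in CS birds, without overlap, and -0.04 to 0.28 in T3 and -0.10 to 0.04 in VC. Neither gene passed without the arrays with misplaced values. ENO1, the glycolytic enolase, was at 0.70, -0.55, -0.25, 0.39 and 0.24 in CS+T3 birds, against -1.79, -1.29 and -0.46 as the lowest, median and highest of the CS birds. It rose by 1.39 (SE 0.28, 2.62-fold, adjusted p = 0.00889), with CS replicate 5 alone reaching into the range of CS+T3. GPI, which interconverts glucose and fructose phosphates, rose by 0.45 (SE 0.12, adjusted p = 0.0453), but passed in only 4 of 24 alternative settings, with adjusted p up to 0.232. GAPDH, the glyceraldehyde phosphate dehydrogenase, did not pass at 0.76 (SE 0.23, adjusted p = 0.0737), with all 11 spots at 0.34 to 1.10 and CS replicate 5 (0.59) above every CS+T3 bird. PCK2, the mitochondrial form of the enzyme that starts glucose formation from oxaloacetate, rose by 0.82 (SE 0.14, adjusted p = 0.00323), with all 3 spots at 0.55 to 1.17. PCK1, the cytosolic form, differed by -0.13 (SE 0.19) and FBP1, fructose bisphosphatase, by 0.47 (SE 0.19), and PCK2 was the 1 gene of 12 in gluconeogenesis and glycogen that passed. In the tricarboxylic acid cycle ACO1, the cytosolic aconitase that also senses iron, rose by 0.98 (SE 0.22, adjusted p = 0.0218), but the list of 11 had a median of -0.09 and only 2 members with a positive fold change.

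Amino acid and nitrogen metabolism held few changes, to be read beside the 2.25% of all features that rose. TAT and FAH, which act at the start and the end of tyrosine breakdown, both rose (FAH 0.87, SE 0.20, adjusted p = 0.0188), and these were the 2 of 33 that passed (median 0.06). HPD, the enzyme after TAT in that chain, stood at 0.98 (SE 0.37, adjusted p = 0.133). ATIC, which closes the purine ring, rose by 1.12 (SE 0.23, adjusted p = 0.0105), and the other 8 measured genes of purine and uric acid formation, the route by which birds dispose of nitrogen, did not pass (median of the 9 genes 0.14).

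Genes of translation leaned upward. Of 40 cytosolic ribosomal protein genes 32 had a positive fold change (median 0.22), and RPL35A (0.72, SE 0.18, adjusted p = 0.0364) and RPS12 (0.57, SE 0.15, adjusted p = 0.0492) rose. Positive fold changes made up 43.0% of all features, and 2.25% of all features rose. The list median per array was -0.05 to 0.06 in CS+T3 and -0.23 to -0.04 in CS and overlapped at the edge, and no ribosomal gene passed without the arrays with misplaced values. Some translation elongation factors, chosen after their values were seen, rose too: EEF1A1 by 0.97 (SE 0.16, adjusted p = 0.00249) and EEF1B2 by 0.54 (SE 0.13, adjusted p = 0.0257). EEF2 also rose past the test, but passed in only 7 of 25 alternative settings. The elongation factors measured were not counted as a list. EEF1A1 stood at -0.06, -0.33, -0.16, 0.13 and 0.16 in CS+T3 birds, against -1.63, -1.02 and -0.40 as the lowest, median and highest of the CS birds. Genes of ribosome assembly in the nucleolus gave none of 28 past the test (median -0.09).

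The next lists held 1 or 2 calls each, where 2.25% of all features rose. In the liver's handling of drugs and steroids CYP2D6 (0.87, SE 0.16, adjusted p = 0.00532) and CYP2AC1 (0.71, SE 0.19, adjusted p = 0.0433) rose among 26 genes, whose median was 0.08. HSPA8, the constitutive heat shock protein of the cytosol, rose by 0.66 (SE 0.15, adjusted p = 0.0203) as 1 of 18 chaperones, and PSME3 (0.51, SE 0.13) and PSMA3 (0.40, SE 0.10) rose among 22 proteasome genes. No gene passed among 28 of folding and secretion in the endoplasmic reticulum, 7 of the growth hormone and IGF axis or 18 of the cell cycle.

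**Figure D4:**
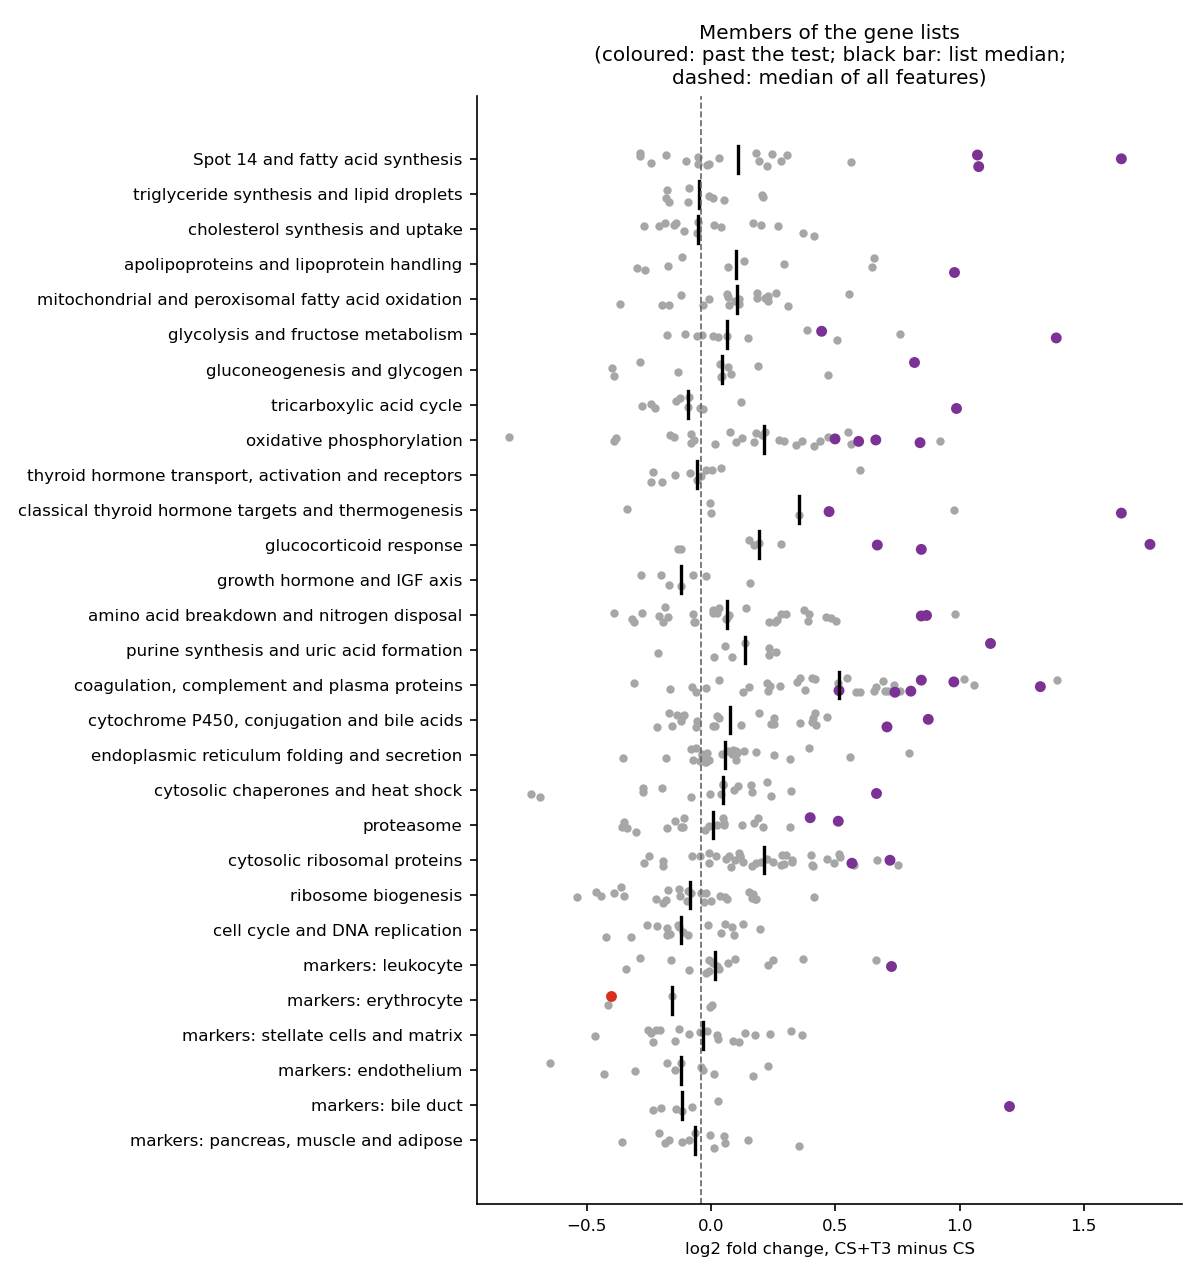
Each row is 1 of 29 gene lists and each point a measured member, with the log2 fold change of CS+T3 minus CS on the x axis, a black bar at the list median and a dashed line at the median of all features (-0.04). Coloured points passed the test, and the list of coagulation, complement and plasma proteins has its median farthest to the right (0.51).

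Beyond these lists the 12 largest rises among named genes included several membrane proteins and transporters. SLCO1A2, an organic anion transporter that in mammals also takes up thyroid hormone, rose by 1.22 (SE 0.22, adjusted p = 0.00594), with 0.50, 0.15, -0.19, 0.65 and 0.44 in CS+T3 birds, against -1.51, -0.83 and -0.41 as the lowest, median and highest of the CS birds. The groups did not overlap, and both spots agreed in sign. ABCA8, a lipid transporter, rose by 1.24 (SE 0.23), STEAP3, a reductase needed for iron uptake through transferrin, by 1.23 (SE 0.25), MME, the peptide-degrading neprilysin, by 1.54 (SE 0.35) and TMEM170B by 1.38 (SE 0.26), each without overlap. EPB41L5, an adaptor of the cell cortex, rose by 1.64 (SE 0.40, adjusted p = 0.0284) and SS18L2 by 1.58 (SE 0.31, adjusted p = 0.00828).

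C1QTNF7, a secreted protein related to adiponectin, rose by 1.53 (SE 0.39, adjusted p = 0.0366). It stood at 2.78, 2.09, 2.18, 2.19 and 1.51 in the CS+T3 birds, against 0.25, 0.41 and 1.51 as the lowest, median and highest of the CS birds. The lowest CS+T3 bird and CS replicate 5 had nearly the same value. T3 birds averaged 1.28 ± 0.93 and VC birds 0.04 ± 0.81 (SD, n = 6 each), so the T3 birds alone were also on the high side, with a wide spread. Without the arrays with misplaced values C1QTNF7 was at 1.32 with an adjusted p of 0.177, and over the alternatives the adjusted p reached 0.25.

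Fewer genes fell. CBLB, a ubiquitin ligase that restrains receptor signalling, had values of -0.10, 0.90, 0.54, 0.16 and 0.80 in the CS+T3 birds, against a lowest of 0.85, a median of 1.84 and a highest of 2.25 in the 6 CS birds. CS replicate 3 was the 1 CS bird within the range of CS+T3. The log2 fold change was -1.23 (SE 0.27, 2.34-fold, adjusted p = 0.0188), and -1.35 (adjusted p = 0.0494) without the arrays with misplaced values, with adjusted p up to 0.186 over the alternatives. NTRK2, a receptor tyrosine kinase for neurotrophins, fell by 1.00 (SE 0.26, adjusted p = 0.0433), with -0.49, 0.43, 0.19, -0.06 and 0.31 in CS+T3 birds, against 0.35, 1.19 and 1.78 as the lowest, median and highest of the CS birds. Without the arrays with misplaced values NTRK2 was at -0.92 with an adjusted p of 0.21, and over the alternatives the adjusted p reached 0.246.

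SIRT2, a NAD-dependent deacetylase, averaged -0.03 ± 0.27 in CS+T3 and 0.83 ± 0.23 in CS (SD, n = 5 and 6) and fell by 0.86 (SE 0.21, adjusted p = 0.0293) without overlap. AIFM2, an oxidoreductase that protects membranes from lipid peroxidation, fell by 0.64 (SE 0.14, adjusted p = 0.0192), also without overlap. HNRNPDL, an RNA-binding protein, fell by 0.58 (SE 0.11, adjusted p = 0.00828), but its 2 spots differed, at -1.13 and -0.03. The other falls within the 12 largest, chosen by the same rule as the rises, were those of RNF126, GDF3, SNN, FARSB, SKA2P1, SLC4A1 and GALM, at -0.63 to -0.39. In VC birds the means of CBLB (0.20), NTRK2 (-0.05) and SIRT2 (-0.02) were nearer to those of CS+T3 than to those of CS. These genes are described because CS stood above CS+T3, which by itself favours such an order, so it is no separate result. The other falls are not set beside VC here.

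**Figure D5:**
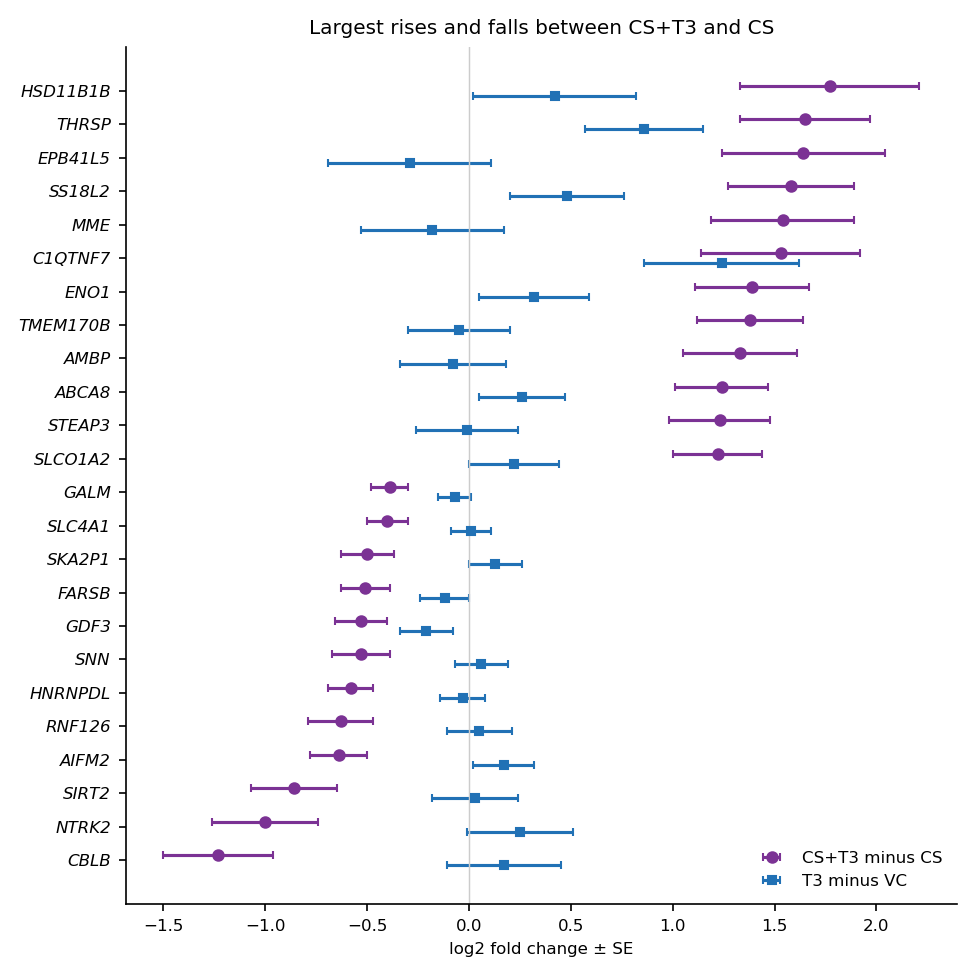
The 12 largest rises and the 12 largest falls between CS+T3 and CS are set beside the difference of T3 minus VC in other birds, as log2 fold changes with SE. THRSP and C1QTNF7 lie at 0.86 and 1.24 without CS, while the other genes lie between -0.29 and 0.48 there.

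Whether T3 did the same without CS can be looked at in T3 and VC birds. Their arrays enter the comparison above through the shared estimate of spread and the need for 3 values in every group. With only the CS+T3 and CS arrays fitted, 158 features passed between CS+T3 and CS, and 137 of them were among the 244. No feature passed between T3 and VC (0 of 9246, 0.0%; 457 had an unadjusted p under 0.05, and limma was the only tool run). Of the 208 features that rose with T3 on top of CS, 145 were also positive in T3 minus VC (69.7%, median 0.11), against 48.0% of all features (median -0.01). The median of the 208 on each array was -0.21 to 0.30 in T3 birds and -0.12 to 0.14 in VC birds, so the groups overlapped. The features share these birds and are not replicates of each other. Of the 36 that fell, 16 were negative in T3 minus VC (median 0.02). T3 minus VC was 0.86 (SE 0.29) for THRSP, 0.59 (SE 0.19) for SLC25A1, 0.33 (SE 0.14) for ELOVL2 and 1.24 (SE 0.38) for C1QTNF7. Each lay below the difference on top of CS. These genes are described because they passed on top of CS, which by itself favours a larger difference there, so the order is no separate result. For plasma proteins the median of T3 minus VC was -0.10.

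The test of the difference itself, (CS+T3 minus CS) minus (T3 minus VC), gave 8 features past the threshold (0.0865%), all with a larger rise on top of CS, with adjusted p of 0.0491 for the smallest and 912 features at an unadjusted p under 0.05. The named ones were F2, at 1.02 (SE 0.20), and A2M, at 0.96 (SE 0.18). T3 minus VC was -0.28 (SE 0.14) for F2 and -0.12 (SE 0.13) for A2M, neither past the test. The same difference was 0.79 for THRSP, 0.48 for SLC25A1 and 0.29 for C1QTNF7, none past the test. These 8 calls were fragile: none was left with the values as deposited, without the 4 or the 6 arrays with misplaced values, or without any of CS replicates 2, 3, 4 and 6.

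CS+T3 against VC gave 5 features past the test (0.0541%), all higher and 415 with an unadjusted p under 0.05, and they share the VC arrays with T3 against VC and the CS+T3 arrays with CS+T3 against CS. Besides GPT2 and C1QTNF7 they were TM2D3, INTS6 and a spot without a gene name, named here after their values were seen. TM2D3 stood at 1.91, 1.23, 1.55, 1.32 and 0.90 in the CS+T3 birds, against 0.01, 0.19 and 0.85 as the lowest, median and highest of the CS birds, and averaged 0.23 ± 0.21 in T3 and -0.03 ± 0.40 in VC. INTS6, a subunit of the Integrator complex that processes small nuclear RNAs, averaged 0.91 ± 0.28 in CS+T3 and 0.31 ± 0.23 in CS, and 0.18 ± 0.19 in T3 and -0.13 ± 0.23 in VC. Both genes were picked for passing against VC and also passed between CS+T3 and CS, so their standing above those 2 groups is no separate result.

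Markers of other cell types in liver were measured beside these groups. For comparison, 2.25% of all features rose and 0.389% fell. Of 18 leukocyte markers BTK, a kinase of B cells and myeloid cells, rose by 0.72 (SE 0.14, adjusted p = 0.0101) and the list median per array was -0.13 to 0.01 in CS+T3 and -0.20 to 0.00 in CS. Of 5 erythrocyte markers SLC4A1, the red cell anion exchanger, fell by 0.40 (SE 0.10, adjusted p = 0.0319), with list medians of -0.14 to 0.29 in CS+T3 and 0.08 to 0.32 in CS, while the globin gene HBBA differed by 0.00 (SE 0.14). None of 11 endothelial markers passed, but their medians lay at -0.08 to 0.01 in CS+T3 and -0.03 to 0.58 in CS, and KDR (-0.65, SE 0.25) and LYVE1 (-0.43, SE 0.13) were at the low end of the list. None of 20 markers of stellate cells and matrix passed (medians of -0.07 to 0.02 in CS+T3 and -0.05 to 0.21 in CS). None of 13 markers of pancreas, muscle and fat did either (-0.14 to 0.02 in CS+T3 and -0.11 to 0.04 in CS). Of 7 bile duct markers TM4SF4 rose by 1.20 (SE 0.29, adjusted p = 0.0268), while EPCAM, the epithelial adhesion molecule of bile ducts, stood at -0.20 (SE 0.11), and the medians were -0.44 to -0.03 in CS+T3 and -0.12 to 0.09 in CS. Ratios to a pool give no absolute level, so no marker can be called absent, and the part of these markers in the results was not tested.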

How the data were processed

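The series measured liver RNA of 23 birds on 2-colour spotted arrays. Per the labels, bird RNA and pool carried different dyes, in the same orientation on all arrays. The authors deposited 1 table of log ratios with 19200 spots per array, taken as log2 from their range (-3.86 to 4.05). How the authors corrected background or normalized, the base and the numerator are not given in the sources used here. The median of each array was within -0.05 to 0.03. Between 28.5 and 53.5% of its spots were blank. The ratios carry no counts, so the number of arrays limits the precision. Arrays are of separate birds, kept 3 per pen in 2 rooms that the labels do not tie to arrays. No slide or scan date was given, so batches could not be examined.

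The position of each array's values was checked by correlating it over spots with the mean of the other arrays in place. The 17 arrays in place gave r of 0.311 to 0.579, while 4 arrays gave -0.027 to -0.004 as deposited and 0.314 to 0.446 after realignment. The other 2 gave 0.437 (CS+T3 replicate 2) and 0.121 (T3 replicate 1) as deposited and 0.48 and 0.21 after it, so T3 replicate 1 stayed below every array in place. An array was realigned if a shifted stretch of at least 1000 spots had r of at least 0.25 at its lag (up to 40 spots). Stretches with r under 0.1 or not computed, and every block in which the lag changed, were left missing, so that all stretches kept had over 1000 spots, with r of 0.173 to 0.497. On these 6 the pattern of blank spots over the whole array correlated with that of the remaining arrays at 0.697 to 0.84 unshifted, against 0.054 to 0.206 shifted by 1 main lag. Blanks were kept where they were deposited while values were moved. On CS+T3 replicate 2 and T3 replicate 1 the values of 17624 and 11271 spots were in place. The unshifted pattern was therefore favoured in advance on these 2 arrays, and the comparison cannot tell where blanks belong in their shifted stretches. The correlation between spots of the same gene, which the realignment did not use, went to 0.099, 0.118 and 0.124 on CS replicate 3, CS+T3 replicate 1 and T3 replicate 3, against -0.014, -0.007 and -0.004 as deposited, but was 0.008 against 0.013 on VC replicate 4, 0.086 against 0.085 on CS+T3 replicate 2 and 0.122 against 0.068 on T3 replicate 1. This same-gene correlation ran over -0.008 to 0.159 on the 17 arrays in place, so it tells placed from misplaced arrays only weakly. On CS replicate 3 it rested on 517 pairs of spots after realignment, against 1635 as deposited. On simulated shifts of the arrays in place the search returned a median of 99.422 to 99.734% of spots to their place, and 88.583% in the worst case. The simulated patterns began in place and then shifted by 7, by 13, or by 1 and 13 spots. Shifts like those of VC replicate 4, or the several of T3 replicate 1, were not simulated. Correlations between pairs of arrays ran over -0.139 to 0.714.

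Spots of a gene were averaged (10601 spots had 1 symbol and 8599 none, and 10455 of the named ones matched the gene table by ID). A limma model (version 3.58.1, R 4.3.3) of group means over all 23 arrays, with eBayes and Benjamini-Hochberg adjustment at 0.05, took features measured on 3 or more arrays of every group, and 5781 other features were not tested. The fit was tested on simulated data. The genes named are the 12 largest changes each way past the test with values on at least 4 CS+T3 and 5 CS arrays, list members past the test with up to 4 others of each list, 7 genes always shown, and genes marked as chosen after their values were seen. The comparison and the gene lists were chosen with earlier results of these data known. Alternatives covered alignment, normalization, filters, weights, the samples fitted and leaving out each array.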

Additional observations from a re-analysis of the deposited data

Results flagged for a closer look

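The change with T3 differed between birds with and without CS in 8 features by limma's interaction test (adjusted p of 0.0491 for the smallest). The difference was 0.96 for A2M and 1.02 for F2, and 1.01, 1.30, 1.54, 1.76, 1.90 and 2.11 for 6 spots without a gene name.

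In 337 groups of birds, 1 gene and 1 group each, 22 held a bird far from the rest; chance gives about 1 in 20 such groups. Among CS+T3 birds, replicate 1, realigned over most of its spots, stood above the rest for SS18L2 (1.19), NDUFB6 (0.52), APOA5 (0.18) and ETFA (0.34). Replicate 2 was realigned over a small part of its spots and had the widest spread of the CS+T3 arrays (SD 0.51 over features). This replicate stood above for TRIP12 (0.83), GHR (1.11) and HBBA (0.62), and below for MDH2 (-0.45), CLDN3 (-0.67), SLC4A2 (-0.44) and ACTC1 (-0.62). Replicate 4 stood below for CCT5 (0.16) and WDR36 (-0.34), and replicate 5 for CRY1 (0.07). Among CS birds, replicate 2 stood above for MOGAT1 (0.62) and BAG3 (2.20). CS replicate 3, realigned over most of its spots, stood above for VWF (0.70) and below for SGK1 (-0.52). Replicate 5 stood above for RPS6 (0.67) and below for CCND1 (-0.04) and MYL2 (-0.08), and replicate 6 below for PSAT1 (-0.71).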

How the results depend on the processing

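The 244 features past the test between CS+T3 and CS became 5 with values as deposited, 66 without the 4 arrays misplaced over most spots, 26 without all 6, 91 after quantile normalization, 484 with array weights and 158 with only these arrays fitted. Chosen after seeing the data, centring each block gave 664, and fitting only these arrays without the misplaced ones gave 23. With a replicate block the count was 71; 4 of 5 same-numbered birds correlated at 0.125 to 0.138 and number 4 at -0.144, against -0.218 to 0.246 between other numbers, and not every bird correlated best with its own number, so the numbers were not taken as pairs. With the block 1 gene passed in oxidative phosphorylation, 1 in the glucocorticoid response, 4 among plasma proteins and none among ribosomal proteins. Leaving out 1 array gave 93 (CS replicate 4) to 670 (CS replicate 5), and also 102, 161, 147 and 127 without CS+T3 replicates 1, 3, 4 and 5 and 123 without CS replicate 6. The 8 interaction calls became 0 as deposited, without the 4 or 6 misplaced arrays, with at least 2 values per group, with robust eBayes, with a replicate block and spot by spot, 1 with 1 lag per array, 2 after quantile normalization, 36 with array weights, 17 with centred blocks, and 0 to 36 leaving out 1 array. Of 170 genes followed, none past the test changed sign, and 8 that did not pass did: THRB (0.02), GPT2 (-0.18), MOGAT1 (0.11), SPP1 (0.18) and GHR (-0.04) with 1 lag per array, TTR (-0.02) and CA2 (0.03) after quantile normalization, CA2 with centred arrays (0.03), weights (0.05), a replicate block (0.02) and centred blocks (0.01), GHR with weights (-0.07) and in both fits without the 6 arrays (-0.09), and, leaving out 1 array, GHR (-0.05 to 0.24), HBA1 (-0.29 to 0.02) and CA2 (-0.09 to 0.06). The alternatives reuse arrays on which the genes were called, so the kept signs of genes past the test were favoured in advance. UCP3 and HBBA, at 0.00, have no direction. Of the other values 3582 kept sign and side of the threshold, 449 lost the call and 100 gained it. The fits that leave arrays out also have fewer birds, and the causes of these changes were not tested.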

Other observations

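Some genes outside the lists, chosen after their values were seen, also rose with T3 on top of CS. AOC3, a cell-surface amine oxidase, averaged 0.80 ± 0.46 in CS+T3 and -0.27 ± 0.27 in CS (SD, n = 5 and 6), a difference of 1.07 (SE 0.18, adjusted p = 0.00283 by limma). RARRES2, the adipokine chemerin, averaged 0.15 ± 0.35 in CS+T3 and -0.93 ± 0.54 in CS, a difference of 1.09 (SE 0.22, adjusted p = 0.00828). SLC51A, a subunit of the bile acid and steroid exporter OST, averaged 0.61 ± 0.31 in CS+T3 and -0.33 ± 0.32 in CS (n = 4 and 6), a difference of 0.95 (SE 0.20, adjusted p = 0.0123). In all 3 genes every CS+T3 bird was above every CS bird, and all 3 still passed without the arrays with misplaced values, at adjusted p of 0.0362, 0.0362 and 0.0286. Over all features 3.13% were separated upward, and 26 of 8599 passed without those arrays. Because the 3 genes were chosen after their values were seen, their count is no separate result. Over all alternatives the adjusted p reached 0.0721 for AOC3, 0.0901 for RARRES2 and 0.11 for SLC51A.

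ALAS1, the first enzyme of heme synthesis, averaged 0.22 ± 0.22 in CS+T3 and -1.04 ± 0.45 in CS (SD, n = 3 and 5) and rose by 1.26 (SE 0.26, adjusted p = 0.0161 by limma). SLC25A12, a mitochondrial aspartate and glutamate carrier, rose by 0.99 (SE 0.20, adjusted p = 0.00828). T3 minus VC was -0.03 for ALAS1 and 0.01 for SLC25A12.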
